A study of Mus musculus with 2 samples.

Results

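The miR-130/miR-301 and miR-148/miR-152 are microRNA families whose seeds overlap in most of their letters, and they were followed here in the neonatal mouse heart. The genes were taken by their GENCODE symbols: Mir130a, Mir130b, Mir301 and Mir301b for the first family, and Mir148a, Mir148b and Mir152 for the second. These are 7 of the 2202 miRNA genes in the tables, and all 7 were found. Small RNA was sequenced from the hearts of 2 male B6CASTF1/J mice (a first-generation cross of C57BL/6J and CAST/EiJ) aged 4 days, with no treatment or mutation named. Each heart gave a single library, and the libraries form a single group, replicates 1 and 2. The labels number the animals separately but give both the same donor identifier, so the spread between the libraries may be technical. No condition was compared, and whole heart mixes cell types, so fewer cells of a type and less RNA per cell cannot be told apart.

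A microRNA is cut from a hairpin precursor, loaded into an Argonaute protein, and guides it to messenger RNAs, mostly through pairing of its seed (bases 2 to 8) with sites in their untranslated ends. Genes with the same seed therefore share many of their possible targets. In the mouse heart miR-130a is known to repress Zfpm2 (FOG-2), a cofactor of GATA4, and in human endothelial cells it represses the antiangiogenic homeobox gene GAX. The miR-148/miR-152 family is known for repressing the DNA methyltransferase gene DNMT1, and miR-148a is abundant in liver.

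The seeds that define the families are shown first, because all later values are read by family. Sequences are the RefSeq mature forms on GRCm38.p6, 5′ to 3′, with the seed in capitals. Shown are the 3p forms of 6 genes, and the 5p form of Mir301b beside that of Mir301. The RefSeq forms used here include no 3p form of Mir301b.
miR-130a-3p: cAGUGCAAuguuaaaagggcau
miR-130b-3p: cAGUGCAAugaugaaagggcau
miR-301a-3p: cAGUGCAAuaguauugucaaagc
miR-148a-3p: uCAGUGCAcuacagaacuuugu
miR-148b-3p: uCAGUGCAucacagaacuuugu
miR-152-3p: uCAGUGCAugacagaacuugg
miR-301a-5p: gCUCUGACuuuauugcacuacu
miR-301b-5p: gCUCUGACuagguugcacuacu

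The seed of the miR-130/miR-301 family is AGUGCAA and that of the miR-148/miR-152 family is CAGUGCA. They share the hexamer AGUGCA, which starts at base 2 in the first family and at base 3 in the second, so that one seed is the other moved by 1 base. Its reverse complement, the letters of a matching target site, is UGCACU. Of the 1738 mature mouse sequences in the RefSeq table, 12 hold this hexamer within their seed, a share of 0.69%. A 3p form of Mir301b is not among the 1738 and so is not counted. The Mir301b hairpin holds the heptamer AGUGCAA once, starting at its base 56. The 5p forms of Mir301 and Mir301b share the seed CUCUGAC, which is not that of miR-130a-5p or miR-130b-5p.

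Outside the seed the members differ more. Positions below are counted from 1 at the 5′ end, with the base of the first-named sequence first. From miR-130a-3p to miR-130b-3p the differences are U11A and A13G, which leaves 20 of 22 bases identical. Between miR-130a-3p and miR-301a-3p 12 of 22 bases are identical. From miR-148a-3p to miR-148b-3p the differences are C9U and U10C, and from miR-148a-3p to miR-152-3p they are C9U, U10G and U20G. No 20-base window of any of the 7 hairpins occurs in another annotated miRNA hairpin. Of all 2202 hairpins, 1084 share such a window with another, so reads of those genes are more open to loss as multi-mapped, which was not tested. Reads under 20 bases, or reads aligned with mismatches, could still be moved between members, which was not tested.

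The 7 genes lie at 6 places in the genome (mm10). Mir130a lies on chromosome 2 (84741115 to 84741178, minus strand) and Mir148a on chromosome 6 (51269812 to 51269910, minus strand), and no annotated gene spans either on its strand. Mir301 lies in an intron of Ska2, a spindle and kinetochore gene, on chromosome 11 (87113004 to 87113089, plus strand). Mir152 is also on chromosome 11 (96850393 to 96850465, plus strand), in an intron of Copz2. Mir148b is on chromosome 15 (103285125 to 103285221, plus strand), in an intron of Copz1. Copz1 and Copz2 encode paralogous zeta subunits of the COPI vesicle coat. Mir130b (17124061 to 17124142) and Mir301b (17124400 to 17124496) lie 258 bases apart on the minus strand of chromosome 16, within an intron of 2610318N02Rik. They are the only members with another miRNA gene on the same strand within 10 kb.

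Levels are given as CPM, the gene's sense count scaled to a library of 1000000 sense counts. The libraries held 4196577 sense counts in replicate 1 and 3801738 in replicate 2. A count combines both arms of the hairpin. A single read was worth 0.238 and 0.263 CPM. Multi-mapped reads, 38.1% and 42.3% of the reads in the tables, are not in these counts. The labelled tissue was checked on 9 striated muscle genes. Mir208a, Mir208b and Mir499, which lie in myosin introns, stood between 1259 and 5794 CPM in both libraries. The other 6, the copies of miR-1, miR-133 and miR-206, lay between 1.32 and 54.4 CPM, and 4 of them (Mir1a-1, Mir1a-2, Mir133a-1 and Mir206) had lower values in replicate 1. Reads shared between copies of miR-1 or miR-133 would be left out as multi-mapped, so these values cannot be read as levels of the mature forms. Of 8 neuron genes, Mir124a-1, Mir124a-2, Mir124a-3 and Mir9-2 were at 0 counts. For reads with a single mapping place this allows up to 0.715 and 0.789 CPM, at 3 counts per library. Reads shared between gene copies would be left out as multi-mapped, so these zeros do not show that miR-124 or miR-9 was absent. The other neuron genes had few reads, with 1 and 82 counts for Mir9-3, 76 and 24 for Mir219a-2, 27 and 7 for Mir219a-1 and 0 and 2 for Mir9-1 in replicates 1 and 2.

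Reads of the 7 genes came mostly from a single gene, Mir130a. The miR-130/miR-301 family held 10935 CPM in replicate 1 and 8705 CPM in replicate 2, or 0.982% ± 0.158 of sense counts (SD, n = 2). The miR-148/miR-152 family held 1453 and 755 CPM, or 0.110% ± 0.049 (SD, n = 2). The first family had 7.53 times the reads of the second in replicate 1 (95% Clopper-Pearson interval 7.33 to 7.73) and 11.5 times in replicate 2 (11.1 to 12.0). The log2 ratio of the families was 3.22 ± 0.43 (SD, n = 2). With 2 libraries no permutation test can reach a threshold of 0.05, and these intervals cover counting error only. Without Mir130a the other miR-130/miR-301 genes held 2.19 times (2.13 to 2.26) and 1.45 times (1.39 to 1.53) the reads of the miR-148/miR-152 family.

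Mir130a had 32514 counts in replicate 1 and 28917 in replicate 2. These are 7748 CPM (95% Wilson interval 7664 to 7832) and 7606 CPM (7519 to 7694), a mean of 7677 ± 100.05 CPM (SD, n = 2). By counts that leave out multi-mapped reads, Mir130a ranked 24th and 25th among all genes. It supplied 62.5% and 80.4% of the reads of the 7 members. By total sense counts its level barely differed between the hearts. Other scalings, given below, put it lower in replicate 1, with log2 ratios from -0.11 to -0.29.

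Mir301 had 10136 counts in replicate 1 and 1390 in replicate 2. These are 2415 CPM (95% Wilson interval 2369 to 2463) and 366 CPM (347 to 385), and the mean was 1390.5 ± 1449 CPM (SD, n = 2), so the SD exceeded the mean. Its rank was 52 in replicate 1 and 105 in replicate 2. The order of Mir301 and Mir130b was turned between the libraries.

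Mir130b had 744 CPM in replicate 1 and 709 CPM in replicate 2, from 3124 and 2696 counts. Its neighbour Mir301b had 27.6 and 23.7 CPM, from 116 and 90 counts. By total sense counts both stayed close between the hearts, but at very different levels. Mir130b had 26.9 times the reads of Mir301b in replicate 1 (95% Clopper-Pearson interval 22.4 to 32.7) and 30.0 times in replicate 2 (24.3 to 37.4). The log2 ratio within this pair of neighbours was 4.83 ± 0.11 (SD, n = 2), and that of Mir130a to Mir130b was 3.40 ± 0.03 (SD, n = 2).

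In the second family Mir148a was the most abundant gene, with 751 CPM in replicate 1 and 469 CPM in replicate 2, from 3150 and 1783 counts. Mir152 had 531 and 200 CPM, from 2229 and 762 counts. Mir148b was lowest, with 171 and 86.0 CPM from 718 and 327 counts. All 3 were higher in replicate 1, and their order was the same in both libraries. Mir148b, whose 3p form is the closer of the others to miR-148a-3p, was the lowest of the family.

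**Figure D1:**
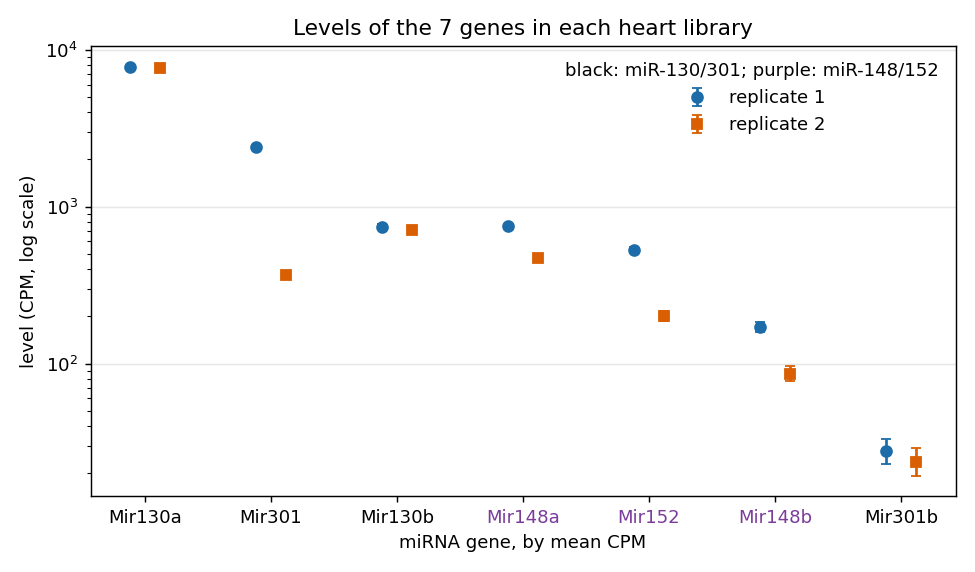
Level of each gene in CPM (log scale) in replicate 1 (circles) and replicate 2 (squares), ordered by mean CPM, with 95% Wilson intervals as bars, which cover counting error only and are often smaller than the points. Mir130a is at 7748 and 7606 CPM, and Mir301 is at 2415 CPM in replicate 1 and 366 CPM in replicate 2.

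By mean CPM the order was Mir130a, Mir301, Mir130b, Mir148a, Mir152, Mir148b and Mir301b. Neighbours in this order were compared within each library. Mir130a exceeded Mir301 in both libraries, by 3.21 times and 20.8 times. Mir301 exceeded Mir130b by 3.24 times in replicate 1 (95% Clopper-Pearson interval 3.12 to 3.38) but held 0.516 times its reads in replicate 2 (0.483 to 0.550). Mir130b and Mir148a could not be separated in replicate 1, at a ratio of 0.992 (0.944 to 1.04), and stood 1.51 times apart in replicate 2 (1.42 to 1.61). The 3 lower steps held in both libraries: Mir148a over Mir152 (1.41 and 2.34 times), Mir152 over Mir148b (3.10 and 2.33 times) and Mir148b over Mir301b (6.19 and 3.63 times).

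The make-up of the families differed between the hearts. Mir301 was 22.1% of the miR-130/miR-301 reads in replicate 1, with a 95% Wilson interval of 21.7 to 22.5, and 4.20% in replicate 2, with an interval of 3.99 to 4.42. Mir130a was 70.9% and 87.4%, while Mir130b was 6.81% and 8.15% and Mir301b 0.253% and 0.272%. In the miR-148/miR-152 family Mir148a was 51.7% (50.4 to 52.9) and 62.1% (60.3 to 63.8), and Mir152 was 36.6% (35.4 to 37.8) and 26.5% (24.9 to 28.2). Mir148b was 11.8% (11.0 to 12.6) and 11.4% (10.3 to 12.6), which overlap. These shares do not depend on how the libraries are scaled.

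**Figure D2:**
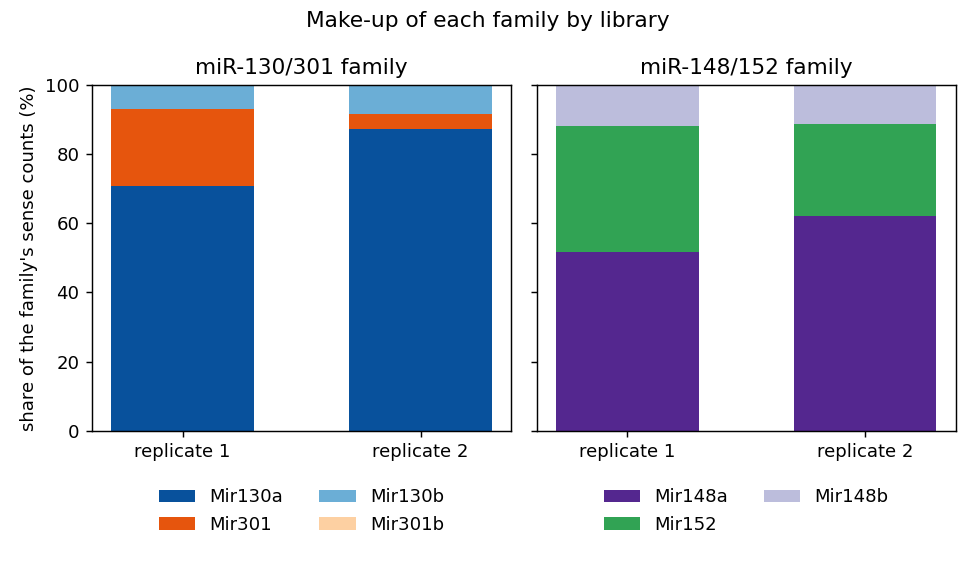
Share of each family's sense counts (%) held by each member, in replicate 1 and replicate 2. Mir301 is 22.1% of the miR-130/miR-301 bar in replicate 1 and 4.20% in replicate 2, and Mir301b at under 0.3% is too thin to see.

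The libraries of the 2 animals were then compared gene by gene, as replicate 1 over replicate 2, with Fisher's exact test (two-sided, Benjamini-Hochberg adjustment over the 441 genes with 10 or more counts). The test sets 2 libraries side by side and takes counting error as the only error. All 7 members had 10 or more counts. Of them, 5 were higher in replicate 1 at an adjusted p under 0.05 and 0 were lower, while 36.5% of all tested genes were called higher in replicate 1 and 20.4% lower. With no count minimum 4 members were called higher, beside 20.2% of the genes, and with counts taken without regard to strand 6, beside 41.1%. The sixth was Mir130b. The median log2 ratio was 0.68 over the members and 0.26 over all tested genes.

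Mir301 stood farthest apart. It was 6.61-fold higher in replicate 1 (95% Clopper-Pearson interval 6.25 to 6.99), a log2 ratio of 2.72 on the log2(CPM + 1) scale. The unadjusted Fisher p has a −log10 of 1449. Only 3 of the 441 tested genes had a larger ratio toward replicate 1. With libraries scaled by total sense counts, Mir301 made up 91.9% of the gap of 2230.4 CPM between the libraries in the family sum. Without it the other 3 genes together held 8519.8 CPM in replicate 1 and 8339 CPM in replicate 2. The share of 91.9% depends on the scaling. With TMM, described below, Mir130a, Mir130b and Mir301b had negative log2 ratios (-0.22, -0.17 and -0.020), while Mir301 was at 2.48.

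The miR-148/miR-152 genes all lay above a log2 ratio of 0, as did all 7 members and 280 of the 441 tested genes. Mir152 was 2.65-fold higher in replicate 1 (95% Clopper-Pearson interval 2.44 to 2.88, log2 ratio 1.40, adjusted p = 1.86e-134 by Fisher's exact test). Mir148b was 1.99-fold higher (1.74 to 2.27, log2 ratio 0.98, adjusted p = 7.81e-26 by Fisher's exact test). Mir148a was 1.60-fold higher (1.51 to 1.70, log2 ratio 0.68, adjusted p = 7.44e-58 by Fisher's exact test). The genes lie on 3 chromosomes, and 27 tested genes had a larger ratio than Mir152, 63 than Mir148b and 123 than Mir148a. Over 2-fold apart toward replicate 1 were Mir301 and Mir152, beside 13.6% of the 243 genes that averaged 100 or more counts.

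The other 3 members were close to equal. Mir130a was 1.02-fold higher in replicate 1 (95% Clopper-Pearson interval 1.003 to 1.03) with an adjusted p of 0.040 by Fisher's exact test. Its adjusted p was 0.067 with no count minimum, and after other scalings it was called in the opposite direction, with adjusted p down to 3.65e-131. Mir130b was 1.05-fold higher (0.997 to 1.11, adjusted p = 0.107) and Mir301b 1.17-fold higher (0.879 to 1.56, adjusted p = 0.391), by the same exact test. Neither passed the threshold with sense counts, and the interval for Mir301b allows up to 1.56-fold. With counts taken without regard to strand Mir130b was called higher in replicate 1 (log2 ratio 0.18, adjusted p = 3.78e-06, Fisher's exact test), and with the scalings below its adjusted p ran from 6.11e-10 to 0.102.

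The direction of these 3 genes changed with the scaling. The median tested gene had a log2 ratio of 0.26, and TMM scaling moved all ratios by -0.24 and DESeq2 scaling by -0.31. Under both, Mir130a (log2 ratios -0.22 and -0.29) and Mir130b (-0.17 and -0.24) were called lower in replicate 1, and Mir301b (-0.020 and -0.086) was not called. Of all tested genes, 28.1% were called lower and 26.3% higher in replicate 1 with TMM, and 30.8% and 23.6% with DESeq2 scaling. With factors from the 344 genes that reached 10 counts in both libraries, Mir301b kept its sign (log2 ratios 0.079 with TMM and 0.00033 with DESeq2 scaling), and Mir130b was no longer called with TMM (adjusted p = 0.102, exact binomial test). Mir130a was still called lower under both. Called higher were then 4 members under both, beside 30.6% of genes with TMM and 27.0% with DESeq2 scaling. Called lower were 1 member with TMM, beside 25.2%, and 2 with DESeq2 scaling, beside 27.7%. Mir301, Mir152, Mir148b and Mir148a stayed higher under both, with log2 ratios from 2.48 for Mir301 with TMM to 0.37 for Mir148a with DESeq2 scaling.

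**Figure D3:**
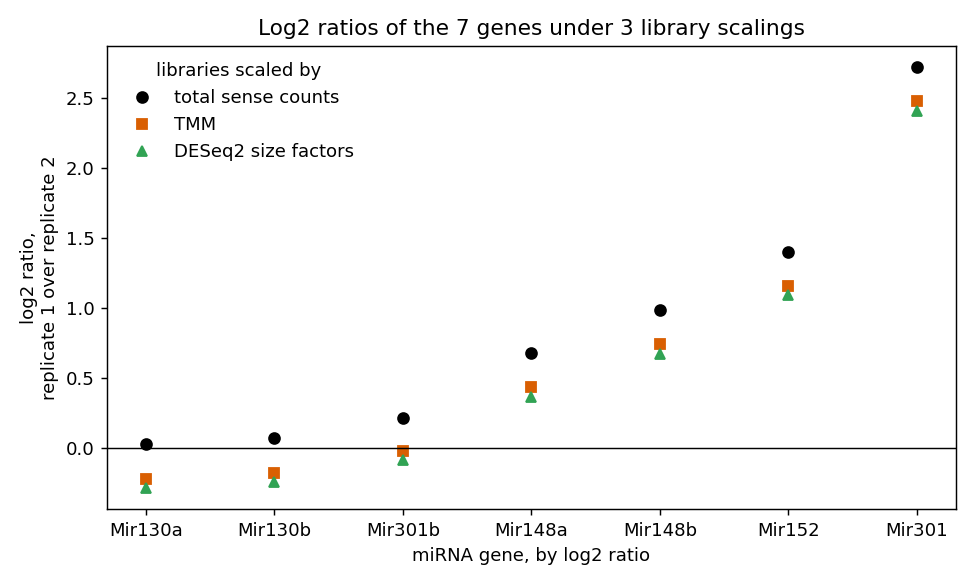
Log2 ratio of replicate 1 over replicate 2 for each member, with the libraries scaled by total sense counts (circles), TMM (squares) or DESeq2 size factors (triangles). Mir130a, Mir130b and Mir301b cross 0 with the scaling, and Mir148a, Mir148b, Mir152 and Mir301 stay above it.

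With spread between the libraries allowed for, no member was called. The biological coefficient of variation estimated by edgeR over 344 genes was 0.381. edgeR's exact test with this spread, which comes from the same 2 libraries, called 0 of the 7 members and 0.454% of the 441 genes. Mir301 was the only member with an unadjusted p under 0.05 (p = 0.0030, adjusted p = 0.166, edgeR's exact test). The miR-148/miR-152 genes did not pass either, at unadjusted p from 0.149 for Mir152 to 0.585 for Mir148a in edgeR's exact test.

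**Figure D4:**
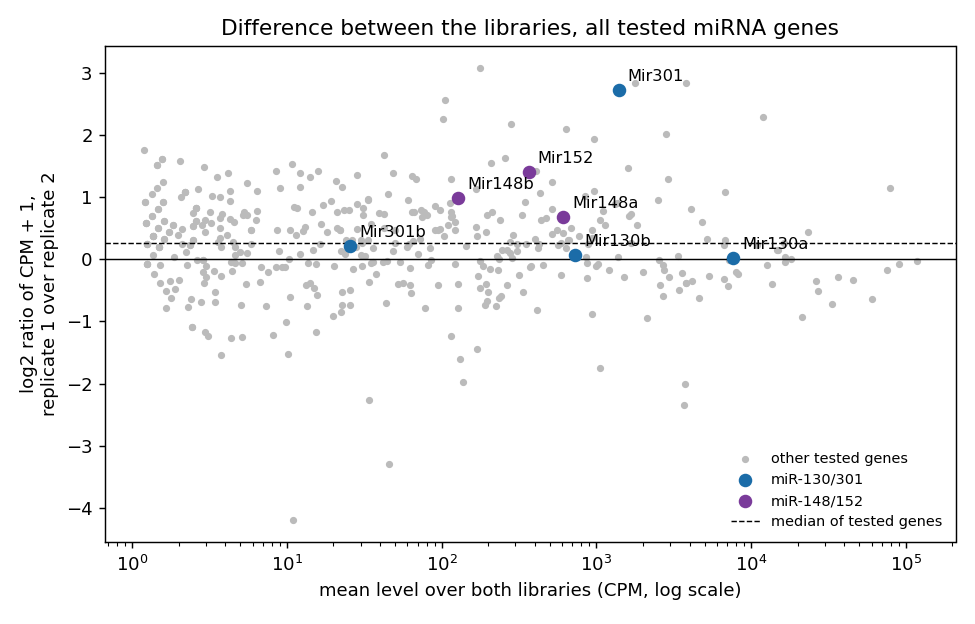
Log2 ratio of CPM + 1, replicate 1 over replicate 2, against mean CPM (log scale) for the 441 tested genes (grey), the miR-130/miR-301 genes (blue) and the miR-148/miR-152 genes (purple), with the median of tested genes at 0.26 as a dashed line. Mir301 lies at 2.72, with 3 genes above it, while Mir130a, Mir130b and Mir301b lie just below the dashed line.

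The hexamer occurs in the seeds of 6 further mature sequences, and most of their genes had no reads. The genes with the same seed as miR-130a-3p are Mir130c, Mir6341, Mir6389 and Mir721, whose sequences are shown because they hold the whole seed and differ beyond it.
miR-130c: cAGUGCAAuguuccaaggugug
miR-6341: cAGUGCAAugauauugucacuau
miR-6389: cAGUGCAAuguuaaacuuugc
miR-721: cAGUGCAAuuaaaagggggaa
All 4 were at 0 counts in both libraries, as were 1458 of the 2202 genes. No gene outside the family had the seed of miR-148a-3p. The hexamer with another first base, in the seed AAGUGCA, occurs in miR-291b-3p and miR-350-5p. Mir291b was at 0 counts, and Mir350 had 176 CPM in replicate 1 and 179 CPM in replicate 2, close to the level of Mir148b in replicate 1. As counts combine both arms, reads of miR-350-5p itself cannot be given.

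Reads on the opposite strand were nearly absent. Mir130a had 2 and 1 antisense counts in replicates 1 and 2, and the other 6 members had 0 in both.

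Markers of other cell types also differed between the hearts, and their part in the results above was not tested. The liver, gut and pancreas list had 721 CPM in replicate 1 and 189 CPM in replicate 2. Of its 7 tested genes, 5 were called higher in replicate 1 and 1 lower, with Mir216b at 0 in both. Its defining liver gene Mir122 had 309 and 105 CPM, a log2 ratio of 1.54, beside 0.68 for Mir148a. The fibroblast list had 19095 and 16713 CPM, with 4 of 8 tested genes higher in replicate 1 and 1 lower, and Mir199a-1 at 0. In it Mir214 had 6683 and 941 CPM, a log2 ratio of 2.83, beside 2.72 for Mir301. The gene called lower was Mir21a, the most abundant of the list, with 11680 and 15435 CPM (log2 ratio -0.40). The endothelial list had 109519 and 49773 CPM, with 1 of 3 tested genes higher and 1 lower. Nearly all of that sum was Mir126a (109200 and 49330 CPM), while Mir221 had 275 and 399 CPM and Mir222 43.8 and 44.5 CPM. The smooth muscle and pericyte list had 48576 and 79469 CPM, with 0 of 2 higher and 2 lower. For striated muscle genes the summed level in replicate 1 was 1.46 times that in replicate 2. Of 9 tested, 3 were called higher and 2 lower. For red blood cell genes the ratio was 1.23, with 2 of 3 tested genes higher and 0 lower. For white blood cell genes it was 1.04, with 2 of 5 higher and 3 lower. For neuron genes it was 0.819, with 2 of 3 higher and 1, Mir9-3 (0.238 and 21.6 CPM), lower.

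For each member the non-member gene closest in both libraries was found among 337 genes, as the Euclidean distance of log2(CPM + 1) over the 2 libraries. Mir152 was nearest to Mir29a (538 and 203 CPM, distance 0.025), and Mir301b to Mir429 (29.3 and 23.4 CPM, distance 0.083). Mir130a was nearest to Mir191 (7184 and 7235 CPM, distance 0.131) and Mir301 to Mir195a (3125 and 437 CPM, distance 0.451). Mir148a was nearest to Mir425, Mir148b to Mir186 and Mir130b to Mir27a, at distances of 0.184, 0.239 and 0.240. Over 2 libraries such a distance describes levels only.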

How the data were processed

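The authors deposited raw counts of reads for each miRNA gene, made on mm10 with GENCODE M21 genes, per the deposited description files. The aligner is not given in the sources used here. Sense counts (gene's strand) were used, and lines that name no gene (unmapped, multi-mapped, unassigned) were kept out of library sizes. Whether reads of CAST alleles were lost was not tested. CPM, Wilson and Clopper-Pearson intervals, Fisher's exact test (scipy 1.17.1) and log2(CPM + 1) were computed from the counts. Ratios are replicate 1 over replicate 2. edgeR 4.0.16 (TMM, exact test) and DESeq2 1.42.0 (size factors) gave alternatives. With other scalings the exact binomial test replaced Fisher's test. A quasi-likelihood fit was not possible, as this design leaves no residual degrees of freedom. The Fisher test was also run on simulated counts. These held counting error only, so that run says nothing about its p-values where libraries spread more. Sequences are from RefSeq (GRCm38.p6), and their hairpins matched the GENCODE positions for 7 of 7 genes. The members, the marker lists and the rule for other named genes (same seed, neighbours, hosts, nearest level) were chosen with earlier results of these data known. Mir350 and Mir291b, which hold the hexamer alone, and the single marker genes named were chosen after their values were seen.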

Additional observations from a re-analysis of the deposited data

How the results depend on the processing

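Members called higher in replicate 1 were 4 with TMM, DESeq2 scaling or no count minimum, beside 26.3%, 23.6% and 20.2% of tested genes. With counts taken without regard to strand 6 were called higher, beside 41.1%. Called lower were 2 with TMM, beside 28.1%, and 2 with DESeq2 scaling, beside 30.8%. edgeR's exact test called 0 members, beside 0.454% of genes. The members' median log2 ratio was 0.43 with TMM, 0.37 with DESeq2 scaling and 0.79 without regard to strand. With the other scalings Mir130a (-0.22 and -0.29), Mir130b (-0.17 and -0.24) and Mir301b (-0.020 and -0.086) turned sign, for TMM and DESeq2 in that order, since both subtract a constant. With factors taken from 344 genes that reached 10 counts in both libraries, chosen after seeing the data, the shifts were -0.14 and -0.22. With TMM 4 members were then called higher and 1 lower (135 and 111 of 441 genes), and with DESeq2 scaling 4 and 2 (119 and 122 genes), and Mir301b did not turn sign. Counts taken without regard to strand gave 12854 CPM for the miR-130/miR-301 family. The library totals were then 3099807 and 3035432 counts, below the sense totals, and why they were smaller was not tested. The log2 ratio of the families was 0.84 without Mir130a and 4.44 without Mir148a, and 2.91 to 3.53 in single libraries. Depth limits Mir301b, at 90 to 116 counts.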
